A study of Mus musculus with 14 samples.

Results

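Among the 7 wild-type jejunum arrays of the series, 4 carried a high level of Hspa1b, the stress-inducible HSP70 chaperone, and 3 did not. The sets were chosen by these measured values: the 7 arrays, of 14 in all, were divided at a log2 intensity of 10 for Hspa1b, read from the only probe set that carries this symbol alone. WT replicates 1, 2, 6 and 7 lay above that limit and are called the high arrays. WT replicates 3, 4 and 5 lay at or below it and are called the low arrays. On the high arrays Hspa1b measured 11.75, 12.68, 12.44 and 10.99, and on the low arrays 9.41, 8.59 and 8.88, all as log2 intensity. The means were 11.96 ± 0.76 (SD, n = 4) and 8.96 ± 0.42 (SD, n = 3), an 8.02-fold difference. The last array inside the high set was WT replicate 7, with an intensity of 2029, and the first outside it was WT replicate 3, with 681, a gap of 1.58 log2. No label marks these sets: they were made from Hspa1b itself, so every WT difference below is a description of these 7 arrays without a test, and Hspa1b is left out of all counts.

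Each array held jejunal RNA labelled as 1 biological replicate, and the labels do not say whether a replicate is 1 mouse. The WT samples carry LRH-1 WT and the other 7 samples LRH-1 K289R, a form of the nuclear receptor LRH-1 (gene Nr5a2) in which a lysine is replaced by an arginine. Mice of both genotypes were 19 to 21 weeks old, were fed without restriction, were kept 5 to a cage and were killed at 7 am. The labels give no sex, litter, cage, dissection order or scan batch, so none of these could be set against the split, and their part in it was not tested. The labels do not say whether a length of jejunum was taken whole or where along the jejunum it came from.

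Median intensities ran from 168 to 174 over the 14 arrays. Correlations between 2 arrays were 0.987 to 0.992 within the high set, 0.991 to 0.992 within the low set and 0.985 to 0.993 between the sets. The tissue label was checked against markers of the distal small intestine, and 2 high arrays stood apart. Fabp6, the ileal bile acid binding protein, measured 12.52 on WT replicate 1 and 9.18 on WT replicate 6, against 6.20 to 6.42 on the other WT arrays. On the K289R arrays it measured 10.71 on replicate 2 and 9.91 on replicate 7, whose Hspa1b levels were 8.74 and 8.50. Differences and list medians of at least 0.1 log2 printed below are therefore also given without WT replicates 1 and 6 where that moved them by over 1.5 times.

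The heat shock response is the cell's answer to damaged protein. When unfolded protein draws chaperones away from heat shock factor 1 (HSF1), this factor binds DNA as a trimer at inverted repeats of a short element and switches on chaperones within minutes. Its targets include HSP70, HSP110, HSP90, the J-domain proteins that load clients onto HSP70, small heat shock proteins and co-chaperones. In the intestine it is known to help the epithelium withstand heat and loss of blood supply.

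The 250 bases upstream of the start site show an inverted repeat of 2 such elements for the inducible HSP70 pair and for the HSP110 gene Hsph1. These are the members with the largest differences. None of these 3 windows holds a run of 3 elements. They are shown 5′ to 3′ on the minus strand of mouse assembly GRCm38.p6, from RefSeq, at chr17:34959239-34959488 for Hspa1b, chr17:34972157-34972406 for Hspa1a and chr5:149636337-149636586 for Hsph1 (the first of its 2 starts in the table). Capitals mark each match to the inverted repeats GAANNTTC or TTCNNGAA, which read the same on both strands.
Hspa1b: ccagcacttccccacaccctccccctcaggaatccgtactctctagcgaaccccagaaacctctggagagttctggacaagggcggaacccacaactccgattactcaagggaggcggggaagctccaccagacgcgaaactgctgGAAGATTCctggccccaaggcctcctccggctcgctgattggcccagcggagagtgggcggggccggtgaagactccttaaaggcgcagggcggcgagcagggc
Hspa1a: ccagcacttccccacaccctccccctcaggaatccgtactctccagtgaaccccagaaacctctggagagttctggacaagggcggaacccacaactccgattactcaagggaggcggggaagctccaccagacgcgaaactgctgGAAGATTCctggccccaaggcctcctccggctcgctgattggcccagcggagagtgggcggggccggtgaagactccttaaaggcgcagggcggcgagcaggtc
Hsph1: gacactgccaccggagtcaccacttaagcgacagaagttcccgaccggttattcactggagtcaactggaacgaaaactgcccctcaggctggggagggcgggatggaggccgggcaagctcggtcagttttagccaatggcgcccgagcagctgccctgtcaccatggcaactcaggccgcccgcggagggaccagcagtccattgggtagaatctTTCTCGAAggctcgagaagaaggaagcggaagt
The match lies 104 bases before the start in Hspa1b and Hspa1a and 33 bases before it in Hsph1. The Hspa1b and Hspa1a sequences differ at 3 of the 250 bases. The same repeats occur upstream of 3932 of 27025 genes in the promoter table (14.5%), 1758 of 13949 genes measured here (12.6%), and 8 of the 26 measured chaperone genes that have an entry (30.8%). The shares describe letters in these windows and say nothing about binding. The 2 repeats overlap in a run of 3 elements, GAANNTTCNNGAA or TTCNNGAANNTTC, which 1 of the 26 chaperone genes and 139 of the 27025 genes hold.

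Cytosolic heat shock chaperones as a group were higher on the high arrays. Of 33 listed genes 30 were measured above the limit for dim genes, and 25 of these 30 had a higher mean on the high arrays, against 49.9% of the 18009 genes. In 18 the high arrays all lay above the low arrays, against 4.98% of genes, and in none did they all lie below, against 2.71%. In 8 the difference also reached 0.5 log2, against 0.178% of genes. The median difference over the 30 was 0.22 log2, against -0.00046 over all genes. It was 0.22 without WT replicates 1 and 6, 0.217 without Hspa1a, and between 0.203 and 0.260 under the other alternatives. The mean level of the list was 9.44 to 9.59 on the high arrays, 9.14 to 9.18 on the low arrays and 9.08 to 9.22 on the 7 K289R arrays, so the low arrays and K289R arrays overlapped and the high arrays stood above both.

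**Figure D1:**
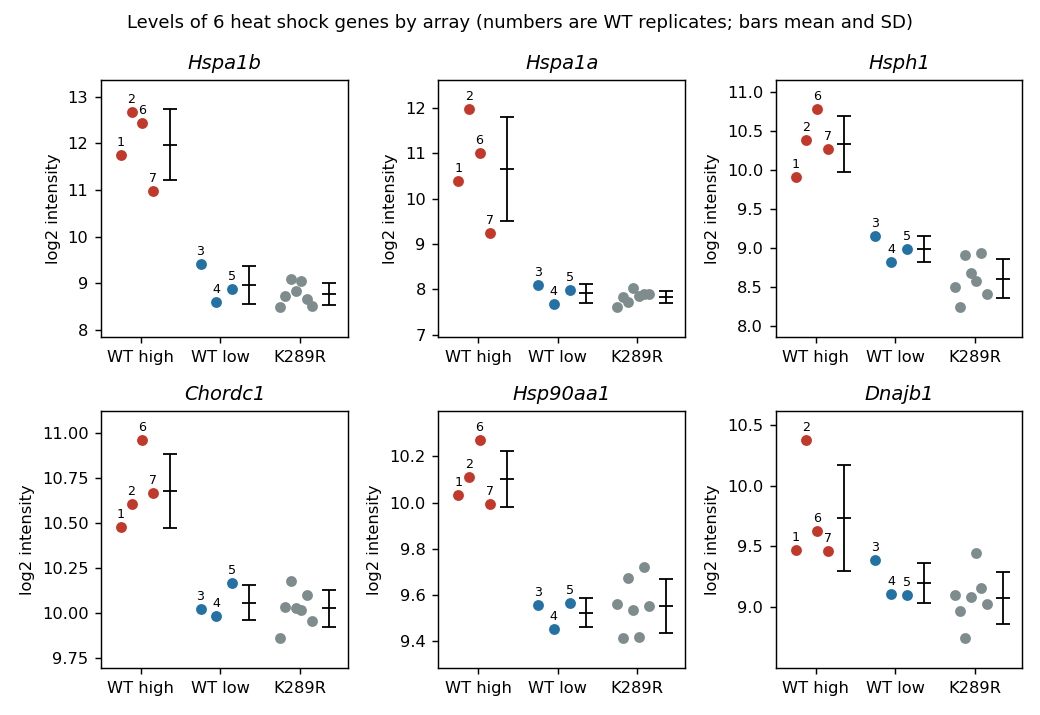
Log2 intensity of 6 heat shock genes on each array, for the WT high arrays (n = 4), the WT low arrays (n = 3) and the K289R arrays (n = 7); points are arrays, numbers beside them are WT replicates, and the bar to the right of each group is its mean with SD. In all 6 panels the 4 high arrays lie above every other array; Hspa1b set the groups, and for Dnajb1 only replicate 2 is far above.

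Within the HSP70 family the differences were largest in inducible HSP70 and in HSP110. Hspa1a, the second inducible HSP70 gene, measured 10.39, 11.97, 11.01 and 9.25 on high arrays 1, 2, 6 and 7, and 8.09, 7.67 and 7.98 on low arrays 3, 4 and 5. Its difference was 2.74 log2 (10.66 ± 1.14, n = 4, against 7.91 ± 0.22, n = 3, SD), a 6.70-fold difference. The order of the 4 high arrays was that of Hspa1b, with replicate 2 highest and replicate 7 lowest. As the 2 genes are near-identical copies, their probes may share signal, and the Hspa1a value is uncertain for that reason.

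Hsph1, an HSP110 protein that exchanges nucleotide on HSP70, measured 9.90, 10.38, 10.77 and 10.26 on the high arrays and 9.15, 8.82 and 8.98 on the low arrays. The difference was 1.34 log2, or 2.54-fold (10.33 ± 0.36, n = 4, against 8.98 ± 0.17, n = 3, SD). Its related gene Hspa4l measured 9.45, 9.47, 9.77 and 9.43 against 8.93, 9.001 and 8.91, a difference of 0.58. In both genes the gap between the sets exceeded the SD of either set. Hspa8, the constitutive HSP70, measured 13.17, 13.21, 13.35 and 13.27 against 13.11, 12.99 and 13.05, so the sets did not overlap although the difference was 0.20. Its 3 dimmer probe sets differed by 0.094 to 0.25 in the same direction. Hspa2 differed by 0.29 without overlap, whereas Hspa4 (-0.01) and Hspa1l (-0.02) overlapped.

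In the HSP90 branch, the inducible HSP90 and several of its helpers were higher. Hsp90aa1, the inducible cytosolic HSP90, measured 10.03, 10.11, 10.27 and 9.995 on the high arrays and 9.55, 9.45 and 9.56 on the low arrays, a difference of 0.58 (10.10 ± 0.12, n = 4, against 9.52 ± 0.06, n = 3, SD). Chordc1, an HSP90-binding co-chaperone, measured 10.48, 10.60, 10.96 and 10.67 against 10.02, 9.98 and 10.17, a difference of 0.62. Ahsa2, related to the HSP90 ATPase activator Ahsa1, measured 9.32, 9.56, 9.78 and 9.48 against 8.97, 8.95 and 8.89, a difference of 0.60. In all 3 genes WT replicate 6 was the highest array, not WT replicate 2, on which Hspa1b was highest. Smaller differences without overlap were those of Stip1 (0.41), which links HSP70 to HSP90, Ahsa1 (0.31), Cacybp (0.30), St13 (0.22) and Fkbp4 (0.19), an immunophilin of HSP90 complexes. Ptges3 (0.09), Cdc37 (0.05) and Unc45a (-0.01) overlapped. Hsp90ab1, the constitutive HSP90, was not analysed here.

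Of the J-domain proteins, Dnajb1, the main partner of inducible HSP70, measured 9.47, 10.37, 9.63 and 9.46 on the high arrays and 9.39, 9.11 and 9.10 on the low arrays. Its difference of 0.54 rested on WT replicate 2 and was 0.32 without it. Dnajb2 (0.29) and Dnajb4 (0.23) did not overlap either, while Dnajb6 (0.03), Dnaja2 (-0.08) and Dnaja4 (-0.06) did. Bag3, a nucleotide exchange factor that couples HSP70 to autophagy, measured at least 9.71 on each high array and at most 9.59 on each low array, with means of 9.83 ± 0.12 (SD, n = 4) and 9.51 ± 0.08 (SD, n = 3). The small heat shock protein Hspb1 measured 8.97, 9.36, 9.23 and 8.998 against 8.51, 8.55 and 8.78, a difference of 0.52, and its dimmer probe set differed by 0.25. Hspb8 (0.12) and Cryab (0.05) overlapped. Bag1 and Hspbp1 also overlapped, with differences of 0.10 (0.04 without WT replicates 1 and 6) and 0.03.

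**Figure D2:**
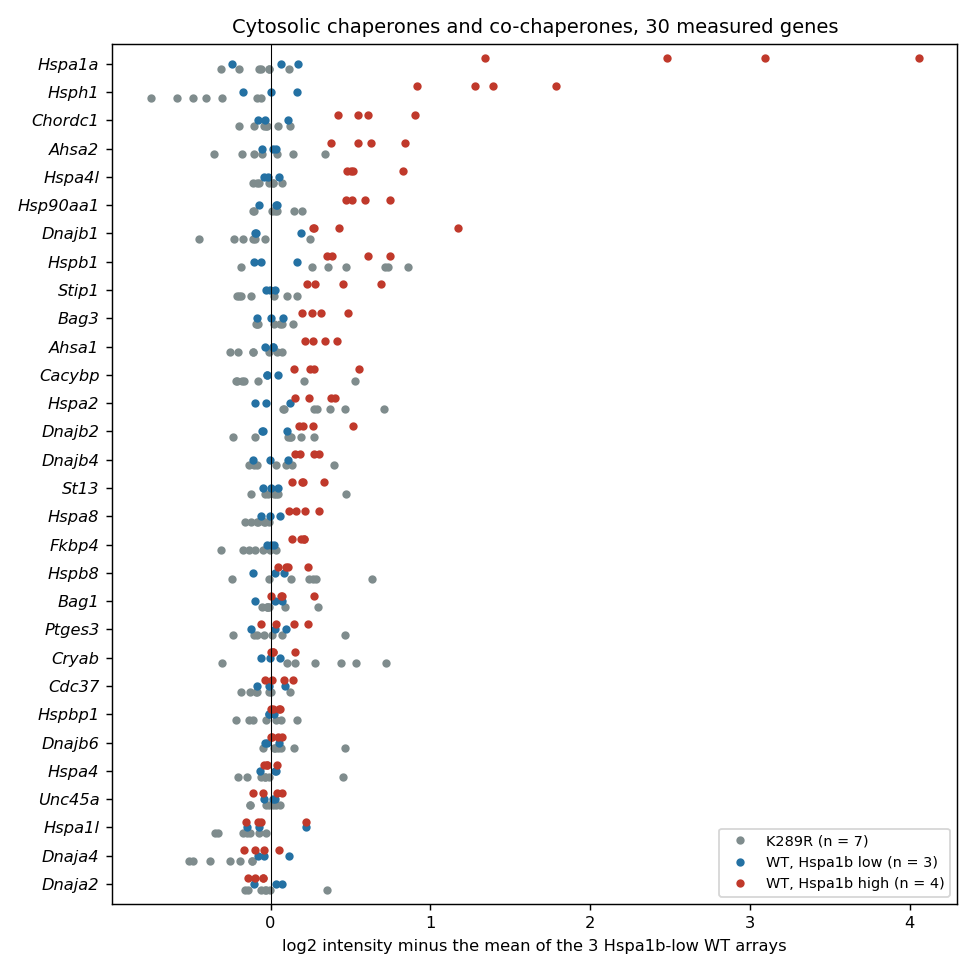
Log2 intensity of the 30 measured chaperone and co-chaperone genes on every array, as the distance from the mean of the 3 low arrays; red points are the 4 high WT arrays, blue the 3 low WT arrays and grey the 7 K289R arrays, with genes ordered by the high minus low difference. The red points lie clear of the blue in 18 genes, and the other 12 overlap.

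The high array with the largest value was not the same for all chaperones. Among the 18 genes without overlap it was WT replicate 6 in 10, WT replicate 2 in 4, WT replicate 1 in 3 and WT replicate 7 in 1. Hspa1a, Dnajb1, Bag3 and Hspb1 were highest on WT replicate 2, and Hsph1, Chordc1, Ahsa2, Hspa4l, Hsp90aa1, Stip1, Ahsa1, Cacybp, St13 and Hspa8 on WT replicate 6.

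The K289R arrays, which the split did not use, gave a second set of arrays with low Hspa1b (8.48 to 9.10, none of 7 above 10). Genotype differs between these and the high arrays, and the comparison was added after the values were seen. In 12 of the 30 chaperone genes all 4 high arrays lay above the low arrays and above all 7 K289R arrays, which held for 52 of all 18009 genes (0.289%). They were Hspa1a, Hsph1, Hspa4l, Hspa8, Hsp90aa1, Chordc1, Ahsa1, Ahsa2, Stip1, Fkbp4, Dnajb1 and Bag3. Hsph1 ran from 8.23 to 8.93 on the K289R arrays, below all WT high arrays. Hspb1 was an exception among the larger differences, since its K289R arrays ran from 8.43 to 9.47 and covered both WT sets.

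Beside each count that follows, the shares over all genes are 49.9% for a higher mean, 4.98% for higher without overlap and 2.71% for lower without overlap. All 12 measured subunits of the TRiC chaperonin and of prefoldin, which fold actin and tubulin, had a higher mean on the high arrays, 5 of them without overlap, with a median difference of 0.12. For example, Cct4 measured 10.57, 10.61, 10.77 and 10.74 against 10.48, 10.38 and 10.56. In none of these 12 genes did all high arrays lie above all K289R arrays. The list mean ran from 9.83 to 10.20 on the K289R arrays, across both the high (10.01 to 10.05) and low (9.91 to 9.95) WT arrays. Of the endoplasmic reticulum chaperones and unfolded protein response genes 18 of 19 were higher, 5 without overlap, with a median of 0.11, and 0.067 without WT replicates 1 and 6. Dnajb9, a reticulum J-domain protein, measured 11.40, 11.38, 11.39 and 11.32 against 11.03, 10.94 and 11.15. Syvn1, a ubiquitin ligase of reticulum quality control, differed by 0.26 and lay above all K289R arrays too. Mitochondrial chaperones were higher in 5 of 9, with a median of 0.02, and Hspd1, the mitochondrial HSP60, differed by 0.23 without overlap. The 15 measured proteasome and ubiquitin genes had a median of 0.01 and no gene without overlap.

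Of the heat shock factors, Hsf2 differed by 0.01 with overlap, and Hsf4 was lower by 0.16 without overlap. The list of 4 measured factors and modulators held 2 genes with a higher mean and had a median difference of -0.06. Hsf1 was not analysed here. Cirbp and Srsf5, from a list of RNA-binding proteins that cold induces, were lower. Cirbp measured 8.11, 8.04, 7.88 and 7.92 on the high arrays, 8.13, 8.25 and 8.19 on the low arrays and 8.11 to 8.50 on the K289R arrays. Srsf5 was lower by 0.18 (0.11 without WT replicates 1 and 6) and also lay below all low and all K289R arrays, which 17 of the 18009 genes did (0.0944%). Sfpq, the third measured gene of that list, was higher by 0.21.

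Several immediate early genes, which cells switch on within minutes of a stimulus, were far higher on WT replicate 2 than on the other WT arrays. Egr1 measured 11.18 on it, against 7.63, 7.82 and 8.06 on the other high arrays and 7.94 to 7.998 on the low arrays. Ccn1 measured 10.48 on it and 7.997 to 8.37 on the other WT arrays. Fos measured 11.53 on it and 9.72 to 10.28 on the others. The Egr1 difference of 0.70 became -0.13 without WT replicate 2, that of Ccn1 went from 0.67 to 0.10 and that of Fos from 0.31 to -0.05. Without WT replicates 1 and 6, which leaves replicates 2 and 7, the differences of these 3 genes were 1.65, 1.26 and 0.75. Of the 30 measured genes in the list 1 was higher and 1 lower without overlap, near the shares over all genes of 4.98% and 2.71%, and the median difference was 0.05, and 0.19 without WT replicates 1 and 6. The higher gene, Nr4a2, measured 8.18, 8.30, 8.23 and 8.16 against 8.02, 7.90 and 8.12, and so was not high on WT replicate 2 alone. The metallothionein Mt2 was likewise highest on WT replicate 2, at 11.18 against 8.42 to 9.92 on the others. The 4 measured genes of the metal response list had a median difference of 0.26, and 0.35 without WT replicates 1 and 6, with 3 higher and 1 of them without overlap.

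Genes that glucocorticoids induce were higher in 11 of 11 (49.9% of all genes), with a median of 0.19, and 2 reached 0.5 log2 without overlap (0.178% of all genes). The list means overlapped, at 9.40 to 9.84 on the high and 9.30 to 9.43 on the low arrays, with WT replicate 1 lowest of the high arrays. The list shares Mt1 and Mt2 with the metal response list. Sgk1, a kinase of sodium transport, measured 11.10, 11.14, 11.52 and 11.03 against 10.70, 10.53 and 10.49. Angptl4, a secreted lipoprotein lipase inhibitor, measured 9.46, 9.78, 9.82 and 9.32 against 9.11, 8.92 and 8.43. Both overlapped with the K289R arrays, which ran from 10.25 to 11.56 and from 8.84 to 9.95. Fkbp5 (0.03) and Tsc22d3 (0.13), also known glucocorticoid targets, overlapped between the WT sets. In the integrated stress response list 12 of 15 were higher and only Ddit4 reached 0.5 log2 without overlap, at 9.17, 9.20, 8.86 and 8.64 against 8.39, 8.40 and 8.56.

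Over all genes, 32 were higher on the high arrays by at least 0.5 log2 without overlap (0.178%) and 11 were lower (0.0611%). These counts depended on the arrays: without WT replicate 5 they were 88 and 98, without replicate 2 they were 50 and 65, without replicate 7 they were 54 and 34, without replicate 4 the lower count was 21, and without replicate 3 it was 17. Of the 32 genes 23 to 31 kept their place when 1 WT array was left out, and 17 did without WT replicates 1 and 6. Of the 8 chaperones among them 7 kept it without those 2 arrays. Of the 32, 7 also lay above all 7 K289R arrays, and all 7 were chaperones. Hspa1a, whose probes may share signal with Hspa1b, was 1 of them. Dnajb1 was another, with 9.464 on its lowest high array and 9.445 on its highest K289R array.

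**Figure D3:**
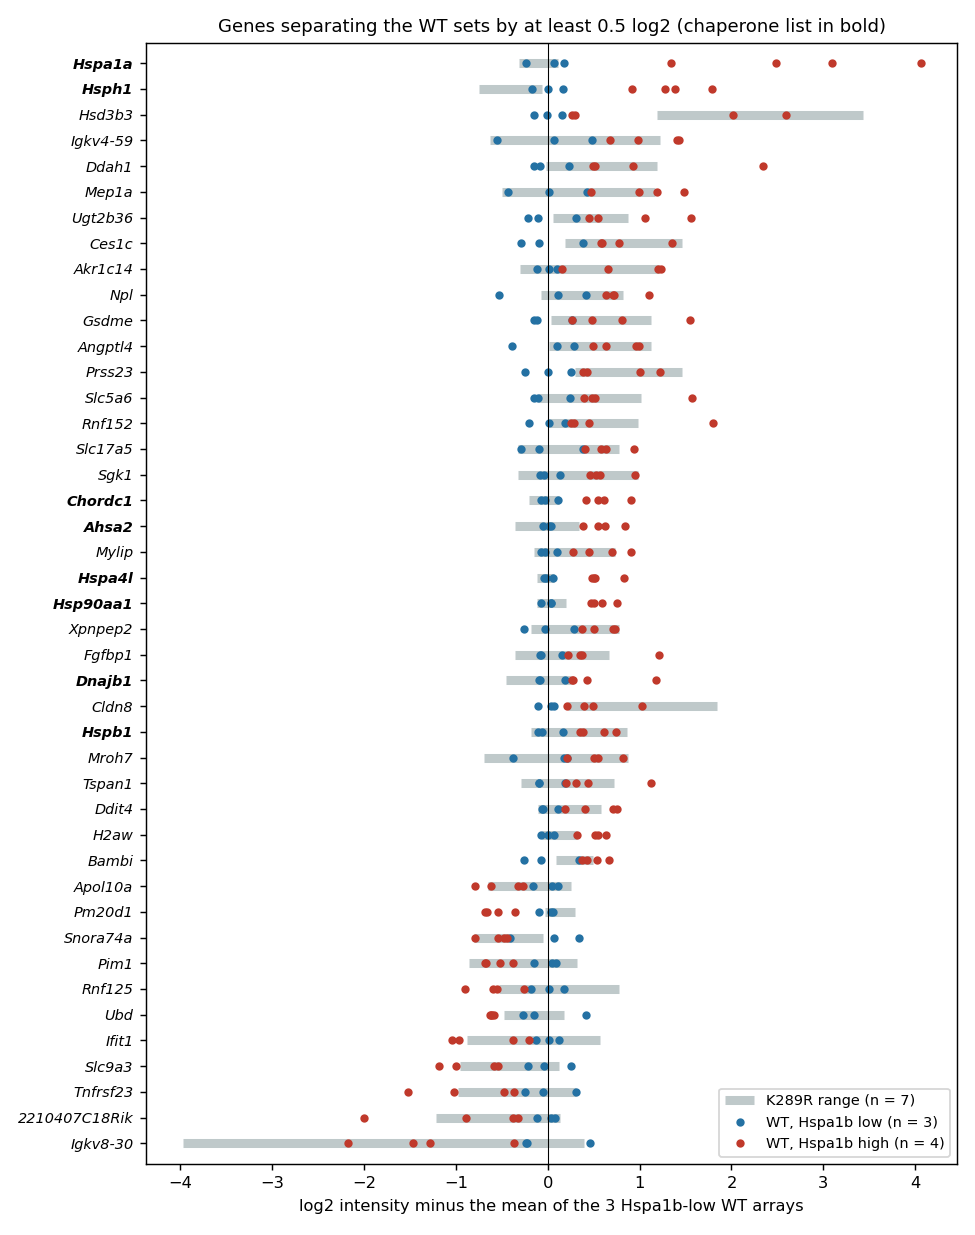
The 43 genes whose high and low WT arrays do not overlap and whose means differ by at least 0.5 log2, as the distance from the mean of the low arrays; red points are the 4 high arrays, blue the 3 low arrays, and the grey bar is the range of the 7 K289R arrays, with genes of the chaperone list in bold. The red points clear the grey bar in 7 of the 32 higher genes, all in bold, and in Ubd and Pm20d1 among the 11 lower genes.

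The other 24 higher genes included enzymes and transporters of the epithelium. Of these 24 genes 21 were highest on WT replicate 1 or 6, the arrays with Fabp6, as were 5 of the 8 chaperones. Their median difference was 0.72, and 0.45 without these 2 arrays, while that of the 8 chaperones was 0.59 and 0.58. Hsd3b3, a steroid dehydrogenase, measured 8.45, 7.87, 6.15 and 6.13 on the high arrays and 5.85, 5.71 and 6.01 on the low arrays, and its K289R arrays ran from 7.05 to 9.29. Its difference was 1.29, and 0.86 without WT replicate 1, and most of its WT values lay below the limit for dim genes. Ddah1, which breaks down methylated arginine, measured 11.16 on WT replicate 1 and 8.67 to 9.74 on the other WT arrays, and its difference went from 1.07 to 0.65 without that array and to 0.50 without WT replicates 1 and 6.

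Mep1a, the brush border protease meprin alpha, measured 12.65, 11.65, 12.36 and 12.16 against 10.74, 11.18 and 11.59. The glucuronosyltransferase Ugt2b36 (0.90), the carboxylesterase Ces1c (0.82), the aldo-keto reductase Akr1c14 (0.81), the sialic acid lyase Npl (0.79), Gsdme (0.78), a pore-forming gasdermin, Prss23 (0.76), a serine protease, the vitamin transporter Slc5a6 (0.74) and Rnf152 (0.70), a ubiquitin ligase, were also higher. Without WT replicates 1 and 6 the difference was 0.50 for Ugt2b36, 0.41 for Akr1c14, 0.37 for Gsdme, 0.41 for Prss23, 0.44 for Slc5a6 and 0.27 for Rnf152. Without WT replicate 1 alone, those of Slc5a6 and Rnf152 were 0.46 and 0.33, and without WT replicate 3 that of Npl was 0.52. Of 2 variable segments of the immunoglobulin kappa light chain, 1 was higher by 1.12 and the other lower, at -1.32.

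Of the 11 lower genes, Ubd and Pm20d1 also lay below all K289R arrays. Ubd, the ubiquitin-like modifier FAT10 that interferon induces, measured 6.14, 6.12, 6.10 and 6.11 on the high arrays and 7.14, 6.57 and 6.46 on the low arrays. Its high values were below the limit used for the mean of a dim gene (log2 6.25), and its difference went from -0.61 to -0.40 without WT replicate 3. Pm20d1, a secreted enzyme that makes N-acyl amino acids, measured 10.80, 10.47, 10.50 and 10.62 against 11.07, 11.20 and 11.22, and 11.13 to 11.45 on the K289R arrays. Slc9a3, the sodium-proton exchanger of the brush border, measured 10.55, 11.20, 10.75 and 11.15 against 11.70, 11.99 and 11.53.

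The interferon gene Ifit1 was lower by 0.65, Rnf125, a ubiquitin ligase, by 0.58, the kinase Pim1 by 0.57, the small nucleolar RNA Snora74a by 0.56 and Apol10a by 0.50. Tnfrsf23, a decoy receptor, was lower by 0.85. The uncharacterised gene 2210407C18Rik was lower by 0.90, and by 0.53 without WT replicate 1. Without WT replicates 1 and 6 the differences were -0.29 for Ifit1, -0.30 for Apol10a, -0.42 for Tnfrsf23 and -0.35 for 2210407C18Rik.

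Markers of other cells moved with the split, and their part in the differences above was not tested. In this bulk RNA, fewer cells of a type and less RNA per cell cannot be told apart. All 13 measured T cell and intraepithelial lymphocyte genes had a lower mean on the high arrays, 3 without overlap (2.71% of all genes), with a median of -0.72 (-0.40 without WT replicates 1 and 6). Their mean log2 over the list was 8.15, 8.95, 8.05 and 8.29 on the high arrays, 9.36, 8.84 and 8.77 on the low arrays and 7.93 to 9.39 on the K289R arrays. WT replicate 2 thus lay among the low arrays for lymphocyte genes although its Hspa1b was highest. Gzmb, a granzyme of cytotoxic cells, measured 8.03, 9.85, 8.22 and 8.57 against 10.29, 9.92 and 9.17, a difference of -1.13, and of -0.59 without WT replicates 1 and 6. Cd3e, a chain of the T cell receptor complex, measured 8.56, 9.42, 8.29 and 8.52 against 9.96, 9.25 and 9.41. Gzmb and Cd3e measured above the limit for dim genes (log2 6.25) on every WT array.

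Antigen presentation genes were lower in 10 of 10 with a median of -0.55, none of them without overlap (2.71% of all genes). Again replicate 2 (11.21 for the list mean) lay with the low arrays (10.94 to 11.25), apart from the other high arrays (10.25 to 10.45). For H2-Ab1, a class II chain, the values were 12.18, 13.10, 11.92 and 11.69 against 13.17, 12.85 and 12.94. Interferon response genes were lower in 15 of 16, 1 of them without overlap (2.71% of all genes), with a median of -0.15. The distal small intestine list was higher in 8 of 8, 2 of them without overlap (4.98% of all genes). Its median was 0.41, and 0.22 without WT replicates 1 and 6. The proximal list had a median of -0.15, and -0.058 without those arrays. Absorptive enterocyte genes had a median of -0.12, and -0.02 without WT replicates 1 and 6, and list means of 12.77 to 13.04 on the high and 12.95 to 13.14 on the low arrays. Smooth muscle (0.04), fibroblast (0.07), endothelium (0.09), goblet cell (0.06) and plasma cell (-0.08, and 0.05 without WT replicates 1 and 6) lists had medians within 0.1 log2 of that of all genes, and their high and low list means overlapped. The median absolute difference over all genes was 0.069 log2. A higher mean was found in 11 of 12 smooth muscle, 11 of 12 fibroblast and 10 of 11 endothelium genes. It was found in 7 of 9 goblet cell and 2 of 7 plasma cell genes, against 49.9% of all genes.

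**Figure D4:**
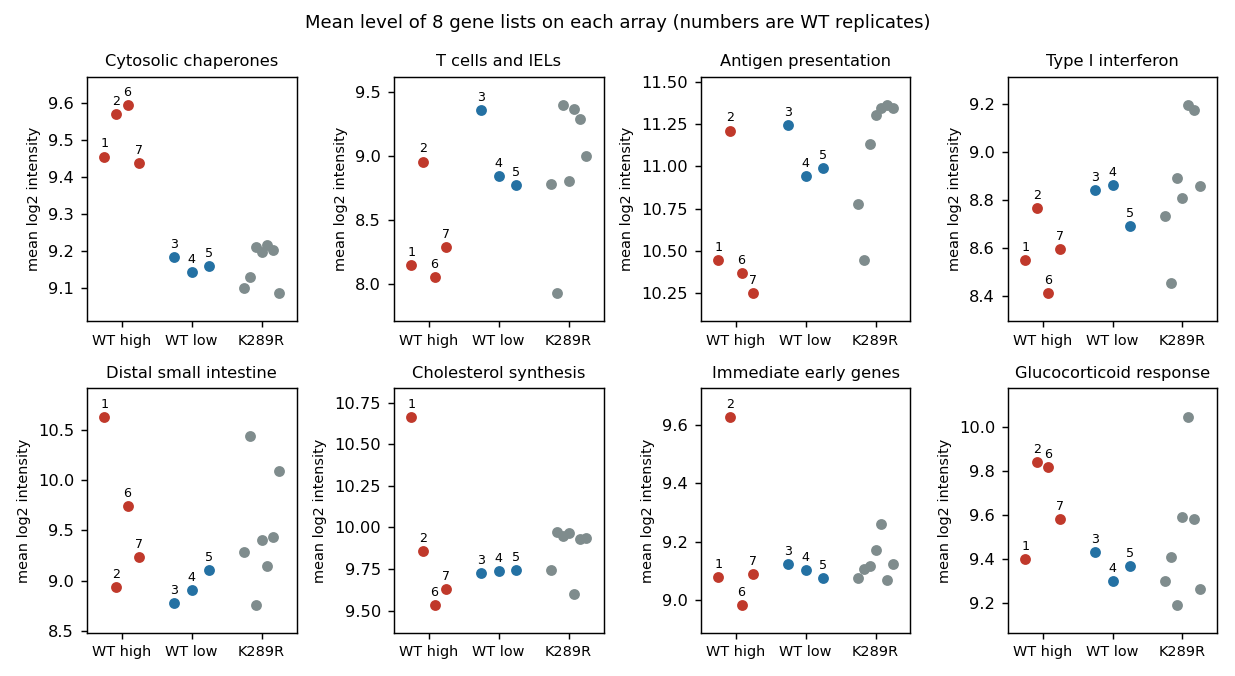
Mean log2 intensity of 8 gene lists on each array, for the WT high arrays (red, n = 4), the WT low arrays (blue, n = 3) and the K289R arrays (grey, n = 7); numbers are WT replicates, and each panel has its own scale. The chaperone panel separates the high arrays from all others, the T cell and antigen presentation panels place replicate 2 with the low arrays, and replicates 1 and 2 stand apart in the cholesterol and immediate early panels.

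Nr5a2, the gene of LRH-1, measured 10.60, 10.36, 10.41 and 10.38 on the high arrays and 10.06, 10.13 and 10.27 on the low arrays, all of which are wild type for it. The difference was 0.28 without overlap, and the K289R arrays ran from 9.83 to 10.39. Where its probes lie relative to the changed codon is not known here, and the genotype labels were not checked by it. Cholesterol synthesis genes had a list mean of 10.67 on WT replicate 1 and 9.54 to 9.86 on the other WT arrays, and their median difference of 0.19 was -0.005 without WT replicates 1 and 6.

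Whether other genes move with Hspa1b was tested only within the 7 K289R arrays, which the split had not used. Their Hspa1b levels spanned 0.618 log2, against 4.09 log2 on the WT arrays, so the slopes speak of variation among low levels. With limma, 0 of 18009 genes had a slope on Hspa1b past an adjusted p of 0.05 (Benjamini-Hochberg), and the lowest adjusted p was 0.666. At an unadjusted p under 0.05 there were 948 genes (5.26%), 609 rising (3.38%) and 339 falling (1.88%). The median standard error of a slope was 0.22 log2 per log2 of Hspa1b.

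Of the 30 chaperones 20 had a positive slope, against 47.5% of all genes, and the median slope was 0.095, against -0.015. It was 0.156 without K289R replicate 7, 0.146 without K289R replicate 3 and 0.166 without the 2 K289R arrays with Fabp6. None passed the adjusted threshold, and 3 had an unadjusted p under 0.05, against 5.26% of all genes. Positive slopes were not particular to this list. Slopes were positive in 9 of 12 chaperonin and prefoldin genes (median 0.16) and 13 of 15 proteasome and ubiquitin genes (median 0.19). So were 9 of 11 in the glucocorticoid list (median 0.33). They were positive in 4 of 9 mitochondrial chaperones (median -0.035) and 7 of 19 reticulum genes (median -0.035). Ahsa2 had a slope of 0.77 (SE 0.23, limma unadjusted p = 0.00679, adjusted p = 0.884). Ptges3, the HSP90 co-chaperone p23, had a slope of 0.75 (SE 0.23, limma adjusted p = 0.884) and Dnajb4 one of 0.56 (SE 0.23, limma adjusted p = 0.884). Hsph1 had a slope of 0.45 (95% interval -0.29 to 1.20) and Hspa1a one of 0.06 (-0.47 to 0.59), so neither was distinguishable from 0 at this spread of Hspa1b.

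In exact permutation tests over the 5040 pairings of these 7 arrays, 2-sided and unadjusted over 30 genes, r with Hspa1b had p under 0.05 for 4 chaperones. They were Ahsa2 (r = 0.826, exact p = 0.022; rho = 0.75, exact p = 0.066), Ptges3 (r = 0.814, exact p = 0.005; rho = 0.857, exact p = 0.024), Dnaja2 (r = 0.684, exact p = 0.047; rho = 0.536, exact p = 0.236) and Dnajb6 (r = 0.686, exact p = 0.049; rho = 0.464, exact p = 0.302). Without replicates 3 and 5, the arrays farthest from the median of Hspa1b, r was 0.452, 0.599, 0.050 and -0.470, so the last 2 relations rested on those arrays. Of these 4 genes only Ahsa2 separated the WT sets. The exact test was not run over all genes, so the count of 4 has no share over all genes beside it. In limma 3 of the 30 chaperones and 5.26% of all genes had an unadjusted p under 0.05.

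**Figure D5:**
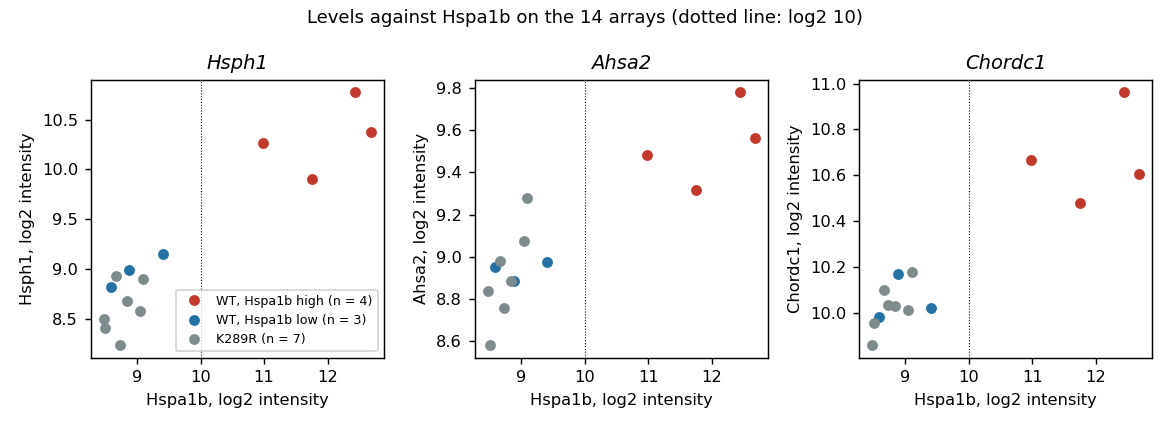
Log2 intensity of Hsph1, Ahsa2 and Chordc1 against that of Hspa1b on the 14 arrays, with red, blue and grey points for the WT high (n = 4), WT low (n = 3) and K289R (n = 7) arrays and a dotted line at the Hspa1b limit of log2 10. All grey points lie left of the line within 0.618 log2 of each other, next to the blue points.

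The genes with the smallest p in K289R were not chaperones. Alppl2, an alkaline phosphatase, fitted a slope of -1.49 (SE 0.22, limma adjusted p = 0.666) and Gsdmc3, a gasdermin, one of -1.85 (SE 0.30, limma adjusted p = 0.760). The T cell list had positive slopes in 12 of 13 genes, with a median of 0.93 and none past the threshold, whereas in WT it was lower on the high arrays, and the difference between the genotypes was not tested. Of the 32 genes higher on the WT high arrays 11 had a positive slope, and of the 11 lower genes 9 did. The share of positive slopes over all genes was 47.5%. The median slopes were -0.56 for the higher and 0.49 for the lower genes, opposite in sign to the WT differences. Of the higher genes 10 and of the lower genes 2 had an unadjusted limma p under 0.05 (5.26% of all genes). Among those 10 only Ahsa2 had a positive slope.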

How the data were processed

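Jejunal RNA was measured on 14 Affymetrix arrays. The authors deposited 1 table of linear intensity values for 41345 probe sets, made with Affymetrix Expression Console per the submitters' processing notes. Version, summarisation and normalization were each not given in the sources used here. Medians of 168 to 174 would be near each other if the arrays had been scaled together, and such scaling would remove a global shift in RNA amount. The values were log2-transformed. Of the probe sets 23521 had 1 gene symbol in the platform annotation, 1814 had several and 16010 were unnamed here. Of these symbols 23328 were the same in the RefSeq table by Entrez identifier. Each gene took its probe set with the highest mean (22180 genes). Genes with a mean under the 25th percentile of probe set means (log2 6.25) were left out, which left 18010 with Hspa1b.

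WT differences are described without a test. K289R slopes on centred log2 Hspa1b were fitted with limma 3.58.1 in R 4.3.3 (lmFit, eBayes, 2-sided), with Benjamini-Hochberg adjustment over 18009 genes, and the steps were tested on simulated data. Correlations used scipy 1.17.1. The labels do not say what separates biological replicates beyond that name, so p-values measure the spread between these samples. The arrays' number limits the precision.

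The 43 gene lists and the split were chosen with earlier results of these data known. Named genes are the chaperone list, up to 15 genes each way with the largest WT difference without overlap and of at least 0.5 log2, up to 3 members of every other list with the largest difference, and the genes with the smallest p in K289R. Nr5a2, Nr4a2, Hsf2, Cd3e, Fkbp5, Tsc22d3 and those beyond all K289R arrays were chosen after their values were seen. Alternatives were other normalizations, filters, probe set rules, cut levels and left-out arrays.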

Additional observations from a re-analysis of the deposited data

Results flagged for a closer look

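In groups of 4 to 7 arrays, single arrays far from the rest of their group were sought for the chaperones, the largest WT differences and the list means (196 checks). The criterion was a gap to the nearest array that is large against the group's range, at the 95% level of Dixon's test, which chance passes in about 1 in 20 groups. The low set, with 3 arrays, is too small for it. It was met 15 times, 7 of them by K289R replicate 3.

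K289R replicate 3 was the highest K289R array for Hspa4 (11.48, next 11.02), Dnaja2 (11.30), Dnajb6 (8.80), Bag1 (9.97) and St13 (9.87, next 9.45), and for the mean of the proteasome list (10.87, next 10.69). It was the lowest for Mep1a (10.67, next 11.68). It also had the highest Hspa1b level of the K289R arrays (9.10).

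On the high WT arrays, WT replicate 6 stood apart for Hspa4l (9.77, next 9.47) and WT replicate 7 for Cryab (9.05, next 8.91). WT replicate 1 stood apart for Slc5a6 (9.94, next 8.89) and Rnf152 (10.23, next 8.88). WT replicate 2 stood apart for the mean of the immediate early genes (9.63, next 9.09).

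Among the other K289R arrays, replicate 7 had the lowest mean of the hypoxia list (9.24, next 9.36), replicate 5 the lowest mean of the ribosomal protein list (10.37, next 10.55) and replicate 2 the lowest mean of the T cell list (7.93, next 8.78).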

How the results depend on the processing

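The genes separating the WT sets without overlap by at least 0.5 log2 numbered 32 higher and 11 lower. With no minimum difference they were 897 and 488, with a minimum of 1 log2 they were 6 and 1, and when all K289R arrays had to be cleared as well, an alternative added after seeing the data, they were 7 and 2. Leaving out 1 WT array gave 25 to 88 higher and 12 to 98 lower genes. A smaller set overlaps less often by construction. Dividing the WT arrays at the largest gap in Hspa1b gave the same sets, and averaging its probe sets changed nothing because there is 1. The median slope of the chaperone list in K289R was 0.095, and 0.166 without the arrays with Fabp6, 0.0146 per rank when ranks of Hspa1b replaced its level, 0.0432 per log2 of Hspa1a when that gene replaced Hspa1b, 0.127 without Hspa1a in the list (added after seeing the data), and 0.0838 to 0.156 when 1 K289R array was left out. The cause of these moves was not tested. The median WT difference of the chaperone list stayed between 0.203 and 0.260 under every alternative run, and no gene passed the K289R threshold under any of them. Of 2703 WT differences of 181 named genes under the alternatives, 6 moved by more than the spread between arrays. No WT difference was tested, so none was called, and some changed sign when 1 array was left out. For example, Egr1 went from 0.70 to -0.13 and Ptgs2 from 0.34 to -0.16 without WT replicate 2. Sqle went from 0.32 to -0.13 without WT replicate 1. No paired analysis was possible because the high and low WT arrays share no replicate number and the slopes lie within 1 genotype. Dim genes, such as Ubd and Hsd3b3 on some arrays, lie near background, which limits their differences.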

Other observations

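Other cell type, metabolic and stress lists were also compared between the high and low WT arrays. Over all genes 49.9% had a higher mean on the high arrays, and 2.71% were lower without overlap. All 8 measured Paneth cell genes had a higher mean on the high arrays, with a median difference of 0.20 (0.115 without WT replicates 1 and 6), and their list means overlapped (13.17 to 13.38 on the high and 12.89 to 13.38 on the low arrays). Respiratory chain subunits were higher in 1 of 15, with a median of -0.08. All 8 measured adipocyte genes were lower, with a median of -0.24 and none without overlap, and the leptin gene Lep measured 7.76, 7.26, 7.38 and 7.33 against 8.07, 7.63 and 7.69. All 7 measured tuft cell genes were lower, with a median of -0.12 and 1 of them without overlap. The tuft list means did not overlap, at 7.89 to 8.08 on the high and 8.11 to 8.17 on the low arrays. Of the 13 measured hypoxia genes 6 had a higher mean (49.9% of all genes), with a median of -0.02. In 2 of the 13 all high arrays lay above the low arrays (4.98% of all genes). In 1 all high arrays lay below them (2.71% of all genes). The hypoxia list means overlapped, at 9.32 to 9.59 on the high and 9.38 to 9.41 on the low arrays. In this list P4ha1, a collagen prolyl hydroxylase, measured 8.51, 8.98, 9.45 and 8.95 against 8.42, 8.18 and 8.58. Pfkfb3 measured 8.001, 9.84, 8.77 and 9.32 against 9.60, 9.65 and 9.65. Both genes overlapped between the sets. The Pfkfb3 difference of -0.65 was -0.33 without WT replicate 1 and -0.06 without WT replicates 1 and 6.

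Of the genes whose high arrays cleared all low WT and all K289R arrays, Ccdc117 (9.36, 9.35, 9.21 and 9.01 on the high arrays, 8.81, 8.86 and 8.71 on the low arrays and 8.60 to 8.94 in K289R) was not on any list and was singled out after its values were seen. The clock gene Nr1d2 differed by 0.31 (0.13 without WT replicates 1 and 6) and overlapped between the WT sets, while all 4 high arrays lay above the K289R arrays.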
